A study of Mus musculus with 16 samples.

Results

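Of the 23284 gene symbols counted in 16 mouse lung tumors, 10 are described here: the lecticans Ncan, Bcan, Vcan and Acan, the link proteins Hapln1, Hapln2, Hapln3 and Hapln4, the tenascin gene Tnr and the secreted neuronal protein gene Lgi1. Ncan and Lgi1 were selected on their lower CPM in Max null than in Max wild-type tumors, and the others were added as relatives and partners of Ncan with that comparison known. Their values in that comparison are therefore a description, given without p-values, and support nothing further. The 9 tumors labelled Max -/- and the 7 labelled wild type were lung tumors of mice whose strain is given as 129/SvJ and C57BL/6. All 16 tumors carry the prefix RP in their titles, a name commonly used for conditional Rb1 and Trp53 alleles in a small cell lung cancer model, although the labels do not spell it out. Deletion followed delivery of an adenovirus with CMV-driven Cre into the trachea, so recombination is not limited to 1 lung cell type. Neither the age of the mice nor whether each tumor came from a separate mouse is given in the labels. Tumors that share a mouse would not be independent, while every SE and p-value here treats them as independent.

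Lecticans are large chondroitin sulfate proteoglycans. Their N-terminal end binds the polysaccharide hyaluronan, link proteins lock that bond, and their C-terminal end binds tenascins, so the 3 kinds of molecule assemble into a network. Neurocan (Ncan) and brevican (Bcan) are largely restricted to the nervous system, where tenascin-R (Tnr) crosslinks them in the nets around neurons. Versican (Vcan) is widespread in connective tissue and aggrecan (Acan) is the main proteoglycan of cartilage. LGI1 is not a lectican: it is secreted at synapses and binds the receptors ADAM22 and ADAM23. Small cell lung cancer is a neuroendocrine tumor and expresses many genes otherwise typical of neurons.

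Between 8.66 and 15.1 M reads per tumor fell in genes, so 1 CPM (count per M scaled reads in genes) is about 10 reads and levels under 1 CPM carry a large counting error. The share of reads aligned to more than 1 place did not overlap between the groups (9.17% to 11.8% in null tumors and 12.3% to 22.2% in wild-type tumors), and was highest in wild-type tumors 2, 4 and 7. It cannot be told apart from the labelled genotype. For the members, the lists of related genes and the cell markers, calls lost without those 3 tumors are named or counted beside the results. They are not given for the genes most like Ncan, Lgi1 and Vcan. In the fit over all genes, 12 of 12 neuroendocrine markers were tested and 0 were called at an adjusted p of 0.05 with edgeR's quasi-likelihood test (3 higher and 1 lower at an unadjusted p of 0.05, and 1 higher and 1 lower with DESeq2). Their summed level was 4162 to 9140 CPM in null tumors and 4456 to 28121 CPM in wild-type tumors. The peptide gene Calca alone gave up to 23460 CPM of that wild-type maximum. In bulk tumors, fewer cells of a type and less RNA per cell cannot be told apart.

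Neurocan was low in every null tumor. Ncan measured from 1.12 CPM (null tumor 6) to 2.33 CPM (null tumor 4) in the 9 null tumors, with a median of 1.37 CPM. In wild-type tumors it measured from 1.71 CPM (tumor 3) to 21.2 CPM (tumor 6), with a median of 10.1 CPM. The groups overlapped only through wild-type tumor 3: the other 6 wild-type tumors, at 6.07 CPM or more, lay above the highest null tumor. These levels rest on 12 to 35 reads per null tumor and 19 to 258 reads per wild-type tumor. The means were 1.56 ± 0.405 CPM (SD, n = 9) and 10.3 ± 6.03 CPM (SD, n = 7), and the fitted log2 difference, null minus wild-type, was -2.72 ± 0.37 (SE).

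Brevican went the other way. Bcan measured from 2.92 CPM (null tumor 9) to 29.3 CPM (null tumor 3) in null tumors, with a median of 15.2 CPM, and from 0.36 CPM (tumor 3) to 10.2 CPM (tumor 4) in wild-type tumors, with a median of 1.84 CPM. All 9 null tumors lay above the wild-type median and 5 of them above the highest wild-type tumor. The remaining null tumors, 4, 7, 8 and 9, measured 3.93, 5.55, 3.58 and 2.92 CPM, inside the wild-type range. Bcan had 38 to 335 reads per null tumor and 4 to 95 reads per wild-type tumor. The log2 difference was 2.09 ± 0.67 (SE). Its call is not stable: it was lost in 14 of 26 alternative fits, 10 of them the fits without null tumor 1, 2, 3, 5 or 6 and without wild-type tumor 1, 2, 3, 5 or 7, where the log2 difference stayed between 1.89 and 2.13.

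The ratio of Bcan to Ncan CPM, not divided by exon length, did not overlap between the groups. Bcan exceeded Ncan in 9 of 9 null tumors, with a ratio of their CPM from 1.69 to 23.25 (median 8.38). Ncan exceeded Bcan in 7 of 7 wild-type tumors, where the same ratio ran from 0.128 to 0.864 (median 0.211). Per kb of exon, Bcan led Ncan in 9 of 9 null tumors and Ncan led Bcan in 6 of 7 wild-type tumors, the exception being wild-type tumor 4. The ratio was formed after both differences had been seen. Wild-type tumor 3, which was as low in Ncan as the null tumors, was also the lowest of all 16 tumors in Bcan, and so kept the wild-type order. In that tumor the order rests on 4 reads of Bcan against 19 of Ncan.

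**Figure D1:**
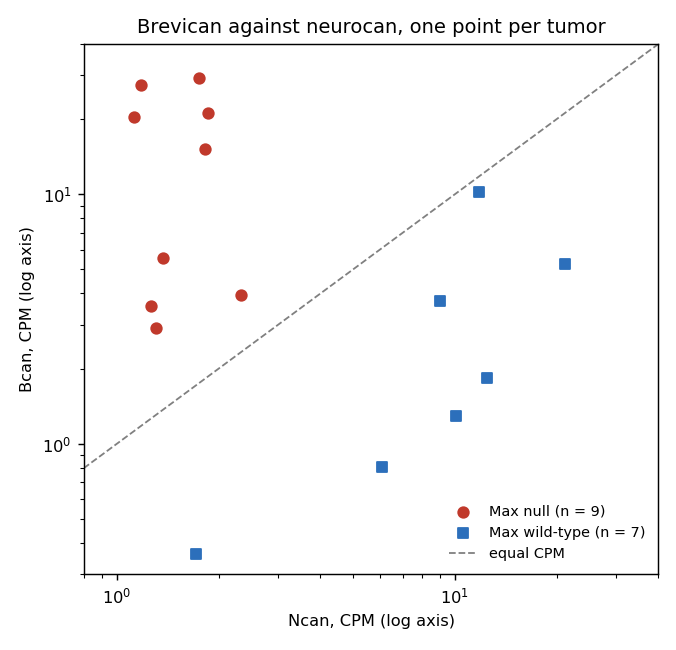
Bcan (vertical) against Ncan (horizontal) in CPM on log axes, 1 point per tumor, with 9 Max null tumors (circles), 7 Max wild-type tumors (squares) and a dashed line of equal CPM. All null tumors lie above the line and all wild-type tumors below it. The lowest wild-type tumor in Ncan, at 1.71 CPM, is also the lowest in Bcan, at 0.36 CPM (4 reads).

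Versican, the lectican of connective tissue, varied more within the groups than between them. Vcan measured from 3.71 CPM to 381 CPM in null tumors, with a median of 10.5 CPM, and from 2.57 CPM (tumor 2) to 79.7 CPM (tumor 1) in wild-type tumors, with a median of 13.9 CPM. The highest null value belonged to tumor 5 alone. The next null tumor, tumor 4, had 20.1 CPM. The log2 difference was 1.34 ± 1.02 (SE) and was not called, and without null tumor 5 it was -1.02. The summed level of 10 fibroblast markers, which include the small proteoglycan gene Dcn, was 318 to 1369 CPM in null and 196 to 837 CPM in wild-type tumors, and 0 of 10 were called with edgeR (1 higher and 0 lower at an unadjusted p of 0.05; 1 higher with DESeq2). Null tumor 5 had 1243 CPM of these markers, below null tumor 7 at 1369 CPM, which held only 9.02 CPM of Vcan. Wild-type tumor 1, the highest of its group in Vcan, was also the highest in the fibroblast markers.

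Aggrecan was close to absent except in 1 tumor. Acan had 147 reads (11.3 CPM) in wild-type tumor 1 and 0 to 4 reads in each of the other 15 tumors, with 0 reads in 1 null and 3 wild-type tumors. A count of 0 allows up to 0.294 CPM in null tumor 2 and up to 0.351, 0.27 and 0.321 CPM in wild-type tumors 2, 3 and 4 (3 reads, counting error only). Acan did not pass the filter on low counts and was not tested. The cartilage collagen gene Col2a1 measured 0.428 to 2.91 CPM in wild-type tumors, and the summed level of 8 cartilage markers in wild-type tumor 1, 46.5 CPM, lay within the wild-type range of 25.8 to 50.7 CPM. Of the 4 cartilage markers tested 1 was called, Chad, higher in null tumors, a call lost without wild-type tumors 2, 4 and 7.

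Because longer genes collect more reads, the lecticans were also set side by side after division by exon length. On this scale (CPM per kb of exon), the null medians were 3.75 for Bcan, 0.727 for Vcan, 0.191 for Ncan and 0.0206 for Acan. The wild-type medians were 1.40 for Ncan, 0.965 for Vcan, 0.452 for Bcan and 0.022 for Acan. As a share of the summed lectican level per length, Ncan made up 0.815% to 11.96% in null tumors and 18.4% to 73.9% in wild-type tumors. Bcan made up 16.3% to 91.7% and 4.92% to 46.2%. A share depends on the other lecticans too. Wild-type tumor 3, at 18.4% Ncan, held 1.71 CPM of Ncan, within the null range of 1.12 to 2.33 CPM. Null tumor 5, at 0.815% Ncan, held 381 CPM of Vcan. Bcan was the leading lectican in 6 of 9 null tumors and Vcan in the other 3. Ncan led in 4 of 7 wild-type tumors, Vcan in 2 and Bcan in 1.

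**Figure D2:**
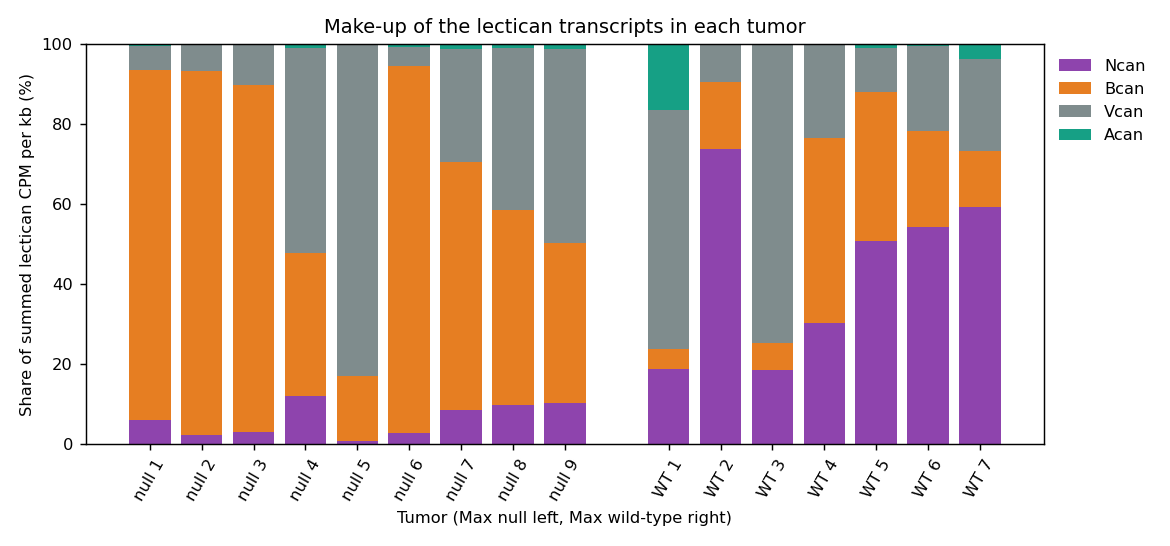
Share of each lectican in the summed CPM per kb of exon of the 4 lecticans (vertical axis, percent), 1 stacked bar per tumor, with 9 Max null tumors on the left and 7 Max wild-type (WT) tumors on the right. Ncan stays at or under 11.96% in null tumors and is at least 18.4% in wild-type tumors, Bcan fills most of 5 null bars and is the tallest segment in 6, and Vcan fills most of null tumor 5. Each share depends on the levels of the other lecticans.

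Link proteins stabilise the bond of lecticans with hyaluronan, and the 4 link protein genes each lie beside a lectican gene in the RefSeq annotation of GRCm38.p6: Hapln4 beside Ncan on chromosome 8, Hapln2 beside Bcan on chromosome 3, Hapln1 beside Vcan on chromosome 13 and Hapln3 beside Acan on chromosome 7, with 0 protein-coding genes in between. Hapln1, the cartilage link protein, measured 0.196 to 3.25 CPM in null tumors (median 0.846) and 0.383 to 10.4 CPM in wild-type tumors (median 1.48). Hapln4, the brain link protein partner of brevican, measured 0.438 to 6.93 CPM in null tumors (median 1.30) and 0.613 to 13.9 CPM in wild-type tumors (median 2.57). For both genes the groups overlapped over most of their range, and the highest value belonged to wild-type tumor 3, the wild-type tumor lowest in Ncan and Bcan. The log2 differences were -1.28 ± 0.69 for Hapln1 and -1.15 ± 0.68 for Hapln4 (SE), and neither was called. Hapln2, another brain link protein, had 0 to 3 reads per null tumor and 0 to 4 per wild-type tumor, and Hapln3 had 12 reads (1.40 CPM) in null tumor 5 and 0 to 5 reads elsewhere. Both were below the filter and were not tested.

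Tenascin-R, the crosslinker of brain lecticans, was higher in null tumors. Tnr measured 5.61 CPM (tumor 8) to 37.8 CPM (tumor 4) in null tumors, with a median of 20.8 CPM, and 2.03 CPM (tumor 4) to 9.02 CPM (tumor 5) in wild-type tumors, with a median of 6.89 CPM. Of the 9 null tumors, 8 lay above every wild-type tumor. Null tumor 8 was the exception. The log2 difference was 1.94 ± 0.40 (SE).

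LGI1 was the member with the largest difference, and the wild-type tumors were not alike. Lgi1 measured 0 to 1.86 CPM in null tumors, with a median of 0.227 CPM (63 reads in all 9 together). Null tumor 3 had 0 reads, which allows up to 0.263 CPM. In wild-type tumors 1, 5, 6 and 7 it measured 25.9, 8.53, 32.9 and 27.1 CPM, while wild-type tumors 2, 3 and 4 had 0.117, 1.89 and 1.39 CPM. Wild-type tumors 2 and 4 thus lay within the null range and tumor 3 just above it. The log2 difference was -4.53 ± 0.92 (SE).

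**Figure D3:**
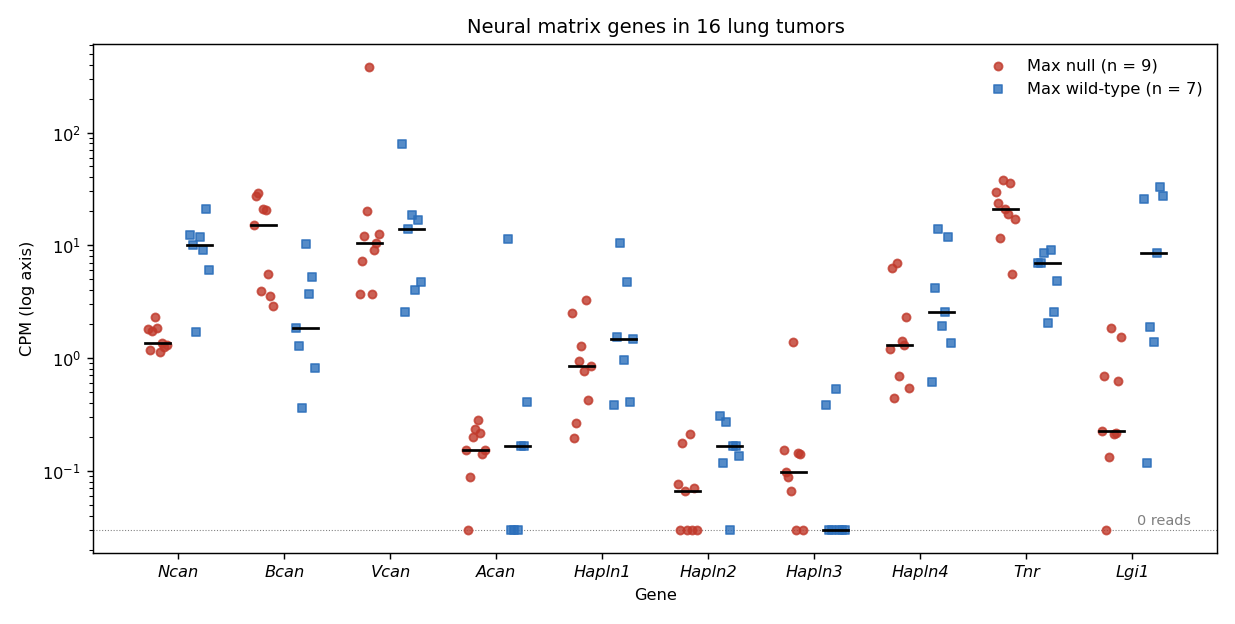
CPM of the 10 genes on a log axis, 1 point per tumor (circles, 9 Max null; squares, 7 Max wild-type), with bars at the group medians and tumors with 0 reads drawn on the dotted line. Ncan and Lgi1 have lower medians in null tumors (1.37 and 0.227 CPM against 10.1 and 8.53 CPM), Bcan and Tnr higher ones (15.2 and 20.8 CPM against 1.84 and 6.89 CPM), and in all 10 genes at least 1 tumor of each group lies within the range of the other.

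In the fit over all genes, 7 of the 10 members passed the filter on low counts. Of these, 2 were called lower (Ncan and Lgi1), 2 higher (Bcan and Tnr) and 3 were not called (Vcan, Hapln1 and Hapln4). Of all 14825 genes tested, 16% were called, 7.40% higher and 8.64% lower in null tumors. In 1.56% of genes tested the groups did not overlap (0.917% higher and 0.648% lower in every null tumor), and 0 of the 10 members were among them. Nothing is read from the members' counts, because the comparison entered their choice. Without wild-type tumors 2, 4 and 7, Ncan (-2.82) and Lgi1 (-4.83) were called and Bcan (2.36) and Tnr (1.72) were not. With the share of multiply aligned reads added to the model, 0 of 7 members were called, with log2 differences of -2.80 for Ncan, -4.49 for Lgi1, 2.58 for Bcan and 1.46 for Tnr. That fit called 10 genes in all.

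Markers of the cell types that make these proteins in the brain were examined beside the members. Of 10 neuron markers, 8 were tested and 3 were called lower in null tumors (Camk2a, Gad2 and Nefh), 0 higher and 5 not called. Without wild-type tumors 2, 4 and 7, 1 neuron marker was called lower. Their summed level was 193 to 439 CPM in null and 295 to 651 CPM in wild-type tumors, and Snap25, a synaptic gene that neuroendocrine tumors also express, gave 85.7 to 331 CPM of it in null and 142 to 531 CPM in wild-type tumors. The 3 called markers had the direction of Ncan and Lgi1 and the opposite one to Bcan and Tnr, and their part in the result was not tested. The other 5 tested neuron markers had log2 differences of -1.10 for Rbfox3, -0.19 for Snap25, -1.57 for Slc17a7, -0.93 for Gad1 and 1.55 for Nefm. Of 6 astrocyte markers, 5 were tested and 1 was called, Aldh1l1, higher, a call lost without wild-type tumors 2, 4 and 7. Their summed level was 22.6 to 83.4 CPM in null and 20.4 to 70.5 CPM in wild-type tumors, while the defining marker Gfap stayed between 0 and 0.682 CPM in all 16 tumors. Of 8 oligodendrocyte and Schwann cell markers, 4 were tested and 0 were called with edgeR (0 at an unadjusted p of 0.05 and 0 with DESeq2). Their summed level was 141 to 283 CPM in null and 152 to 283 CPM in wild-type tumors, of which Mbp alone gave 133 to 276 CPM and 137 to 278 CPM, while Sox10 reached at most 0.23 CPM and Mog at most 0.815 CPM in any tumor.

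Promoters of the 4 members called in the fit are shown because MAX binds DNA with MYC family or MXD family partners at E-boxes, most strongly at the letters CACGTG. Each window runs from 250 bases before to 50 bases after a RefSeq transcription start, 5′ to 3′ on the gene's strand, in build GRCm38.p6 (the counts themselves carry no coordinates and the submitters' processing notes name mm9). Capitals mark any E-box (CANNTG, on either strand, which includes CACGTG). Windows were found for 9 of the 10 members, all but Hapln4.
Ncan, chr8:70120795-70121094 (minus strand): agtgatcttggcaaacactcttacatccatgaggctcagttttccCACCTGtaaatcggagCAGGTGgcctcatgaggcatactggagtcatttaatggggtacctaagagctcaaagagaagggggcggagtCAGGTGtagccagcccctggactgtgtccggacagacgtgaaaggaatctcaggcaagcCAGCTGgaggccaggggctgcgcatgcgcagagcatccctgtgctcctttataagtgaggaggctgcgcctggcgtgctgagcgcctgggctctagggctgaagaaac
Lgi1, chr19:38264437-38264736 (plus strand): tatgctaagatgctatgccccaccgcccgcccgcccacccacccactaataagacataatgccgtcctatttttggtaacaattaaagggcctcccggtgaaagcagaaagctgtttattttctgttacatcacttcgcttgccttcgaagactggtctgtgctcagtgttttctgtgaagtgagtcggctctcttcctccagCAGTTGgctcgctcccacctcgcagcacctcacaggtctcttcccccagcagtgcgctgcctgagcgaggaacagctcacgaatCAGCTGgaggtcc
Bcan, chr3:88000307-88000606 (minus strand): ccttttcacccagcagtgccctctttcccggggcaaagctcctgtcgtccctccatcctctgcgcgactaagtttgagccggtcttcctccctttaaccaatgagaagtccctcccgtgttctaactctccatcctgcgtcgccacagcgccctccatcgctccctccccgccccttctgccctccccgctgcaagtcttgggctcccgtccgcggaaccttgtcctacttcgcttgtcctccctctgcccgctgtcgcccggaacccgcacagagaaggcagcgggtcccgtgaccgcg
Tnr, chr1:159523519-159523818 (plus strand): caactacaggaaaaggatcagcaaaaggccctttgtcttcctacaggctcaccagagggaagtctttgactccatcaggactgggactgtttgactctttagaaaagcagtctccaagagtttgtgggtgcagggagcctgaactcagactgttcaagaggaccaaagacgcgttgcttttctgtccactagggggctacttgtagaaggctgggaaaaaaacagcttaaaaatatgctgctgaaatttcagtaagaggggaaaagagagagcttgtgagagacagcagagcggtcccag
None of the 9 member windows held CACGTG, which 7.15% of all 32851 windows of this length held. The windows of the genes called lower held E-boxes of other letters, 4 in Ncan and 2 in Lgi1, and those of the genes called higher, Bcan and Tnr, held 0. Among the other members with a window, Hapln1 held 0 and Vcan, Acan, Hapln2 and Hapln3 held 1 each. At least 1 E-box stood in 72.3% of all windows. Bcan and Tnr also differed in base composition, with a GC content of 64.0% and 48.0% (median of all windows 52.7%), and ratios of observed to expected CpG of 0.886 and 0.179 (median 0.384). A match is a description of letters and not a site of binding.

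No relation within a group passed adjustment, neither between members nor of a member with a mean of cell markers or the multiply aligned share. Each of 12 pairs was tested in the 9 null and the 7 wild-type tumors separately, on log2 CPM, with two-sided exact permutation tests and Benjamini-Hochberg adjustment over the 24 relations. By that adjustment 0 of 24 passed for Pearson's r and 0 for Spearman's rho, with 3 and 4 at an unadjusted p of 0.05 or less. Ncan and Bcan, opposite between the groups, had r = 0.78 in wild-type tumors (permutation p = 0.03, adjusted 0.24; rho = 0.75, p = 0.0663, adjusted 0.302; n = 7) and r = -0.03 in null tumors (p = 0.936, adjusted 0.949; rho = -0.02, p = 0.982, adjusted 1; n = 9). Without the 2 tumors farthest from the median of Ncan, r was 0.58 and 0.21. Ncan and Hapln1 had r = -0.85 in wild-type tumors (permutation p = 0.0113, adjusted 0.136; rho = -0.86, p = 0.0238, adjusted 0.19; n = 7), and r was -0.47 without the 2 farthest tumors and between -0.95 and -0.64 without any 1 tumor. In null tumors the same pair had r = 0.27 (permutation p = 0.47, adjusted 0.856; rho = 0.55, p = 0.133, adjusted 0.398; n = 9), and r was 0.29 without the 2 farthest tumors.

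Neighbouring lectican and link protein genes were among these pairs. Ncan and Hapln4 had r = 0.04 in null tumors (permutation p = 0.925, adjusted 0.949; rho = -0.17, p = 0.678, adjusted 0.931) and r = -0.30 in wild-type tumors (p = 0.551, adjusted 0.856; rho = -0.21, p = 0.662, adjusted 0.931), and r was -0.54 and -0.12 without the 2 farthest tumors. Vcan and Hapln1 had r = 0.06 in null tumors (permutation p = 0.881, adjusted 0.949; rho = 0.05, p = 0.912, adjusted 0.994) and r = -0.46 in wild-type tumors (p = 0.306, adjusted 0.787; rho = -0.71, p = 0.0881, adjusted 0.302), and r was 0.04 and -0.32 without the 2 farthest tumors. The other neighbouring pairs hold an untested gene each. Ncan and Lgi1, the members called lower, had r = -0.25 in null tumors (permutation p = 0.505, adjusted 0.856; rho = -0.12, p = 0.776, adjusted 0.931) and r = 0.28 in wild-type tumors (p = 0.571, adjusted 0.856; rho = 0.29, p = 0.556, adjusted 0.93), and r was -0.54 and -0.34 without the 2 farthest tumors.

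Relations with cell markers and library quality were computed in the same family. Lgi1 and the mean of the neuroendocrine markers had r = -0.82 in null tumors (permutation p = 0.00698, adjusted 0.136; rho = -0.82, p = 0.0108, adjusted 0.19; n = 9) and r = -0.60 in wild-type tumors (p = 0.162, adjusted 0.554; rho = -0.57, p = 0.2, adjusted 0.464; n = 7). Without the 2 tumors farthest from the median of Lgi1, r was -0.55 and -0.73. Lgi1 had only 0 to 20 reads per null tumor, so its order among them carries a large counting error. Ncan and the same marker mean had r = -0.68 in wild-type tumors (permutation p = 0.103, adjusted 0.494; rho = -0.82, p = 0.0341, adjusted 0.205; n = 7). In null tumors r was 0.11 (permutation p = 0.769, adjusted 0.949; rho = 0.15, p = 0.708, adjusted 0.931; n = 9). Without the 2 tumors farthest from the median of Ncan, r was -0.56 and 0.14. Vcan and the mean of the fibroblast markers had r = 0.72 in wild-type tumors (permutation p = 0.077, adjusted 0.462; rho = 0.86, p = 0.0238, adjusted 0.19) and r = 0.55 in null tumors (p = 0.127, adjusted 0.508; rho = 0.25, p = 0.521, adjusted 0.93), and r was 0.77 and -0.39 without the 2 farthest tumors, so the null value rests on those. Ncan and the multiply aligned share had r = 0.10 in wild-type tumors (permutation p = 0.824, adjusted 0.949; rho = 0.11, p = 0.84, adjusted 0.96) and r = -0.08 in null tumors (p = 0.849, adjusted 0.949; rho = -0.13, p = 0.744, adjusted 0.931), and r was -0.45 and 0.01 without the 2 farthest tumors. With 7 or 9 tumors only strong relations could pass.

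**Figure D4:**
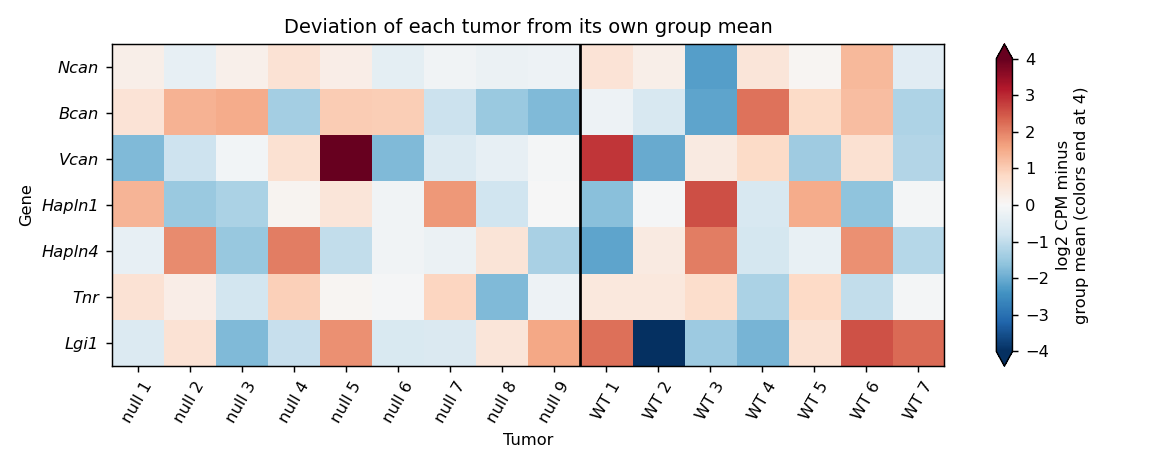
log2 CPM of the 7 tested members in each tumor (columns) minus the mean of that tumor's own group, in color (red above, blue below, colors ending at 4 log2 units), with 9 Max null tumors left of the line and 7 Max wild-type (WT) tumors right. Vcan stands out in null tumor 5, Lgi1 splits the wild-type tumors, and wild-type tumor 3 is low in Ncan and Bcan and high in Hapln1 and Hapln4.

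The genes most like 3 members across tumors were read from log2 CPM centred on the group means (16 tumors, 14703 candidates averaging 1 CPM or more), as a description without a test. For Vcan they were Cnksr2, Calb1, Nr2f2, Gpc6 and Igsf10, with r from 0.957 to 0.855. Calb1 encodes the calcium buffer calbindin, Nr2f2 a nuclear receptor of mesenchymal and venous cells, and Gpc6 a cell-surface heparan sulfate proteoglycan. All 5 were highest in null tumor 5 within the null group and in wild-type tumor 1 within the wild-type group, the tumors highest in Vcan, and r fell to between 0.636 and 0.867 without the 2 tumors farthest from the Vcan median. Cnksr2 measured 23.4 CPM in null tumor 5 and 13.9 CPM in wild-type tumor 1. For Lgi1 the most alike were Lig3, Bcorl1, Galnt2, Kpna6 and Yars (r from 0.921 to 0.845), and for Ncan they included Inpp5f, Mcmbp, Lrch2 and Ppp3cb (r from 0.839 to 0.817). Without the 2 tumors farthest from the median of the member, r lay between 0.682 and 0.852 for the genes like Lgi1 and between 0.418 and 0.693 for those 4 like Ncan, and Mcmbp had r = 0.085 with Ncan within the null tumors. The 4 genes like Ncan were not called between the groups (adjusted p from 0.215 to 0.598 with edgeR). Of those most like Lgi1, Yars was called lower (-0.92 ± 0.28, adjusted p = 0.0345 with edgeR) and Galnt2 (0.86 ± 0.18, adjusted p = 0.00748) and Lig3 (0.70 ± 0.21, adjusted p = 0.0312) were called higher. Lig3 shares 25.1% of its exon bases with Rffl on the opposite strand and is uncertain.

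The genes that build, bind and cut this matrix were tested from 6 lists drawn from function and not from how genes moved, 93 tested genes in all. Of these, 9 were called higher and 2 lower, or 11 of 93, with edgeR's quasi-likelihood test, beside the 16% called over all genes tested. Without wild-type tumors 2, 4 and 7 only 1 of 97 was called, Srgn. Without wild-type tumor 1 the count was 18, and without wild-type tumor 2 it was 7. Over all genes tested the median log2 difference was -0.03.

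Chondroitin sulfate chains decorate the lecticans, and of 21 tested genes for making them 3 rose, 0 fell and 18 did not pass (list median 0.29, with 19 above 0 and 2 below). Over all genes tested, 7062 lay above 0 and 7763 below. Other lists also had more genes above 0 than below: 13 and 6 for other proteoglycans, 9 and 2 for proteases and 8 and 2 for the LGI family. The hyaluronan genes and the lectican partners each had 9 above and 7 below. Xylt1, which adds the first sugar of the chain to the core protein, measured 2.89 to 21.0 CPM in null tumors (median 8.27) and 0.405 to 3.39 CPM in wild-type tumors (median 2.21). Only 1 null tumor lay within the wild-type range, and the log2 difference was 2.25 ± 0.48 (SE, adjusted p = 0.00816 with edgeR). Chst12, a chondroitin 4-O-sulfotransferase, measured 21.3 to 65.7 CPM against 15.5 to 26.3 CPM, a log2 difference of 0.79 ± 0.22 (adjusted p = 0.0262). Chst14, the sulfotransferase of dermatan sulfate, measured 8.38 to 25.4 CPM against 2.57 to 11.99 CPM (0.91 ± 0.30, adjusted p = 0.047), and its call was lost in 20 of 26 alternative fits, 13 of them without 1 tumor (log2 difference 0.75 to 0.96). Without wild-type tumors 2, 4 and 7 none of the 3 was called (Xylt1 1.69, Chst12 0.91, Chst14 0.87).

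Hyaluronan, the polysaccharide that lecticans and link proteins bind, gave mixed counts. Of 16 tested genes for its synthesis, binding and breakdown, 2 rose, 1 fell and 13 did not pass (list median 0.11). Itih4, of the inter-alpha-trypsin inhibitor family whose heavy chains attach to hyaluronan, measured 17.8 to 87.9 CPM in null and 2.83 to 27.4 CPM in wild-type tumors (1.64 ± 0.48, adjusted p = 0.0312 with edgeR). Stab1, a scavenger receptor related to the hyaluronan receptor Stab2, measured 15.5 to 28.6 CPM against 4.99 to 18.4 CPM (0.87 ± 0.25, adjusted p = 0.0288). Hyal3, a hyaluronidase family gene, was lower, with 2.36 to 3.72 CPM against 3.28 to 18.1 CPM (-1.40 ± 0.34, adjusted p = 0.0142). It shares 8.16% of its exon bases with Hyal1 on the same strand. Calls were lost without 1 tumor for Itih4 (null tumor 3 or 6, wild-type tumor 2 or 7, log2 difference 1.44 to 1.51) and for Stab1 (null tumor 7, wild-type tumor 2 or 4, 0.78 to 0.86). Without wild-type tumors 2, 4 and 7 none of the 3 was called (Itih4 1.56, Stab1 0.56, Hyal3 -0.70).

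Other proteoglycans changed in both directions. Of 19 tested, 3 rose, 1 fell and 15 did not pass (list median 0.29). Cspg5, the brain proteoglycan neuroglycan C, measured 8.34 to 43.9 CPM in null tumors (median 16.6) and 1.62 to 15.98 CPM in wild-type tumors (median 6.20), and 7 of 9 null tumors lay above every wild-type tumor (1.78 ± 0.44, adjusted p = 0.0158 with edgeR). Sdc1, the epithelial syndecan, measured 124 to 342 CPM against 55.7 to 162 CPM (1.21 ± 0.22, adjusted p = 0.00408), with 8 of 9 null tumors above every wild-type tumor. Spock2, testican-2, measured 101 to 407 CPM against 13.6 to 140 CPM (1.46 ± 0.49, adjusted p = 0.0481), and lost its call in 19 of 26 alternative fits, 14 of them without 1 tumor (1.20 to 1.54). Srgn, the proteoglycan of blood cell granules, measured 9.92 to 24.8 CPM against 24.2 to 52.9 CPM (-1.21 ± 0.23, adjusted p = 0.00439). Beside Srgn, 4 of 8 macrophage markers were called lower (C1qb, C1qc, Cd68 and C1qa) and 0 higher, with sums of 136 to 295 CPM in null and 211 to 585 CPM in wild-type tumors, and their part in that fall was not tested. All 4 of these marker calls were lost without wild-type tumors 2, 4 and 7. The other 4 macrophage markers were not called, with log2 differences of 0.35 for Csf1r, -0.03 for Emr1, -0.02 for Mrc1 and -1.46 for Marco. Srgn was called without wild-type tumors 2, 4 and 7 (-1.03), and Cspg5 (1.36), Sdc1 (1.05) and Spock2 (1.01) were not.

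Among 11 tested proteases that cut lecticans and their inhibitor, Adamts15, a metalloprotease that cleaves versican and aggrecan, rose and the other 10 did not pass (list median 0.27). It measured 3.69 to 12.4 CPM in null and 1.24 to 3.85 CPM in wild-type tumors, with 8 of 9 null tumors above every wild-type tumor (1.21 ± 0.36, adjusted p = 0.0312 with edgeR). Its call was lost without null tumor 2 or 3 or wild-type tumor 2 or 4 (1.03 to 1.14), and without wild-type tumors 2, 4 and 7 together (1.06). Of 16 tested partners and receptors of lecticans and tenascin-R, 0 were called with edgeR (1 higher and 0 lower at an unadjusted p of 0.05; 1 higher and 1 lower with DESeq2). The 2 with the highest mean CPM, not divided by length, were the receptor phosphatases Ptprf (428 ± 121 against 316 ± 96.0 CPM, SD, n = 9 and 7; log2 difference 0.44 ± 0.22, adjusted p = 0.17) and Ptprs, a chondroitin sulfate receptor (294 ± 99.6 against 216 ± 167 CPM; 0.44 ± 0.32, adjusted p = 0.356). Ptprs was called without wild-type tumor 1, at 0.94.

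The LGI family and the partners of LGI1 gave no calls. Of 10 tested members of the LGI family and their partners, 0 were called with edgeR (0 at an unadjusted p of 0.05 and 0 with DESeq2; list median 0.15). The LGI1 receptor gene Adam22 measured 31.9 to 206 CPM in null tumors and 43.8 to 126 CPM in wild-type tumors (log2 difference 0.24 ± 0.32, adjusted p = 0.639). Dlg4, the synaptic scaffold linked to that receptor, measured 15.3 to 98.6 CPM against 25.3 to 88.1 CPM (0.10 ± 0.35, adjusted p = 0.872). Both differences changed sign in some alternative fits, so no direction is given. That Lgi1 and its partners differ in their response was not tested.

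**Figure D5:**
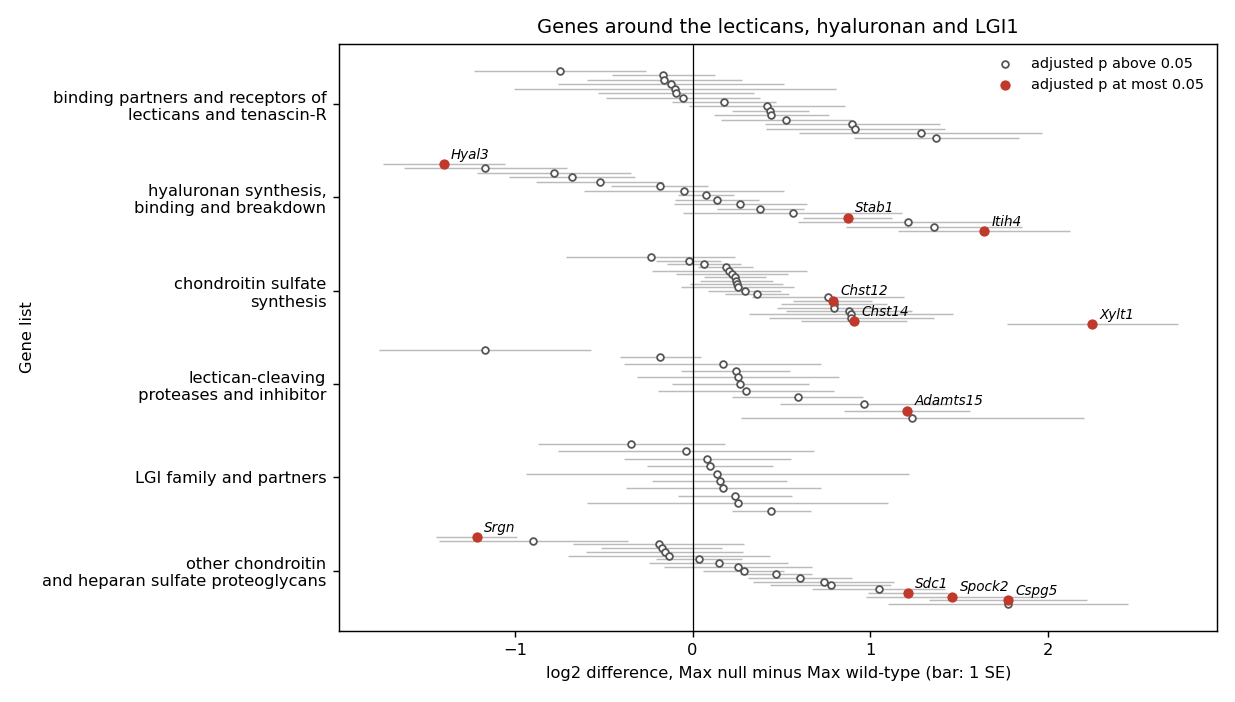
Fitted log2 differences, Max null minus Max wild-type, of the 93 tested genes of 6 lists (rows), with bars of 1 SE; filled points with names have an adjusted p of at most 0.05 and open points do not. Named genes lie right of 0 for chondroitin sulfate synthesis and proteases and on both sides for hyaluronan genes and other proteoglycans, and no gene is named for LGI partners or lectican receptors.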

How the data were processed

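Total RNA, isolated with TRIZOL, went into libraries made with a New England BioLabs kit for Illumina sequencing, per the labels' protocols. The deposited values are counts, whole reads per gene symbol, tumor by tumor. Tools listed by the submitters' processing notes are HTSeq 0.6.1, TopHat, TopHat2 2.0.12 and bcl2fastq 1.8.4, and the build listed is mm9, without saying which step each served. Annotation, strand setting and filters: not given in the sources used here. The totals that close each file (reads in no gene, in several genes or at several places, 29.2% to 45.6% of reads) stayed out of library sizes and tests.

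All 14825 genes kept by filterByExpr were tested with the quasi-likelihood test of edgeR (version 4.0.16, in R 4.3.3), with TMM factors and a Benjamini-Hochberg adjusted p of 0.05. SE is the log2 difference divided by the square root of F. CPM uses TMM-scaled library sizes, and log2 CPM a prior count of 2. Counts for 14742 genes were simulated with this layout, with 100 genes changed 2-fold and 100 changed 4-fold. Of these, 43% and 83% were called. Far fewer genes were changed there than were called in the data, so these shares may not carry over. No pair of libraries agreed within sampling noise. Exon lengths and overlaps came from GENCODE M21 (GRCm38), which may differ from the annotation used for counting. Alternatives were other scalings, DESeq2 1.42.0, limma-voom (limma 3.58.1), other filters, the tumor number as a block, the share of multiply aligned reads as a covariate, and leaving out tumors.

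The members, the lists, the tests and the alternatives were chosen with earlier results of these data known. Genes named are all members, up to 4 called genes per list with the smallest p (the 2 most abundant where none was called), and the 5 genes most like Ncan, Lgi1 and Vcan, skipping unnamed gene models. A gene this rule names and a motif result are not reported here. Marker genes are named where a count or level turns on them.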

Additional observations from a re-analysis of the deposited data

Results flagged for a closer look

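The spread of log2 CPM of the 10 genes was checked in both groups, 20 sets of values in all, for a tumor separated from the others by a gap that is large against the range of its group (Dixon's test at 95%). Chance gives about 1 such set in 20, and 3 were found. Vcan in null tumor 5 had a log2 CPM of 8.57 (3268 reads), and the gap to the next null tumor was 0.639 of the group's range. Hapln3 in the same tumor had a log2 CPM of 0.65, from 12 reads, with a gap of 0.713 of the range. Acan in wild-type tumor 1 had a log2 CPM of 3.51 (147 reads), with a gap of 0.711 of the range.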

How the results depend on the processing

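Over all genes 2378 were called. The count was 10 with the share of multiply aligned reads as a covariate, 256 without wild-type tumors 2, 4 and 7, and 1471 to 3033 without 1 tumor. The tumor numbers shared by the titles did not pair the tumors: deviations of same-numbered tumors correlated between -0.17 and 0.24, and 1 of 7 correlated best with its own number. With the replicate block (tumors 1 to 7 of each group) 278 genes were called, against 1450 in the same tumors without the block, a fit added after seeing the data. Of the members 4 were called. The count was 2 with the block, 2 without wild-type tumors 2, 4 and 7, 2 with the stricter filter (3 members tested), 0 with the covariate and 3 to 4 without 1 tumor. Of the pathway genes 11 were called, and 2 with the block, 1 without wild-type tumors 2, 4 and 7, 0 with the covariate, 18 with DESeq2 and 7 to 18 without 1 tumor. The log2 difference of Vcan turned to -0.019 with DESeq2 and -0.35 with limma-voom, and ran from -1.02 (without null tumor 5) to 2.34 without 1 tumor. That of Adam22 turned to -0.032 with limma-voom and -0.32 with the covariate. That of Dlg4 turned to -0.043 with limma-voom, -0.49 with the covariate, -0.34 without wild-type tumors 2, 4 and 7, and ran from -0.035 to 0.228 without 1 tumor. Ncan kept its direction in 25 of 25 alternative fits and its call in 24, Lgi1 in 25 and 23 of 25, and Tnr in 26 and 24 of 26. These fits reuse the tumors in which the members were chosen with the comparison known. The counts describe the fits and lend the differences no further support. The stricter filter removed Ncan, Lgi1, Hapln1, Hapln4, Hyal3 and Adamts15, so it gives no value for them. The cause of these changes was not tested.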
